A study of Homo sapiens with 12 samples.

Results

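The nuclear-encoded subunits of the 5 oxidative phosphorylation complexes were examined in human mammary epithelial acini. They were taken as the genes whose probe sets carry a single symbol in the platform annotation that starts with a subunit prefix: NDUFA, NDUFB, NDUFC, NDUFS or NDUFV for complex I, SDHA to SDHD for complex II, UQCR or CYC1 for complex III, COX4I, COX5, COX6, COX7 or COX8 for complex IV, and ATP5 for complex V. Assembly factors named NDUFAF or SDHAF were left out, and the brightest probe set stood for each gene. The choice used no difference between the groups. It found 69 of the 11963 genes with a single-symbol probe set, on 102 of 22215 probe sets. Of the 69, 66 were counted as subunits: 28 of complex I, 3 of complex II, 7 of complex III, 13 of complex IV and 15 of complex V. The other 3 match a prefix without being subunits and were counted apart: ATP5IF1, an inhibitor of the ATP synthase, the pseudogene ATP5MC2P1 and the antisense RNA NDUFB2-AS1. COX7A2L, a factor that helps join complexes III and IV, matches the COX7 prefix and was kept in the count of complex IV. Subunit genes whose probe sets carry several symbols, such as NDUFS8 and UQCRH, were not analysed here.

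All 12 arrays held RNA of the HMT-3522 S1 line, which is established from human breast epithelium, is not neoplastic and forms hollow acini in laminin-rich gel. Cells of passage 55 to 60 were plated at 35000 per cm2 with 5% Matrigel and kept for 8 days with EGF and a further 48 hours without it. The AGA group received 10 µM 18-alpha-glycyrrhetinic acid, a blocker of gap junctions, and the Aza group 10 µM 5-aza-2'-deoxycytidine, which inhibits DNA methyltransferases, each for 10 days from plating with new medium every 2 days. The vehicle group received neither agent. The labels call the AGA and Aza cultures non-polarized and the vehicle cultures polarized at their apical side. Each group had 4 arrays, numbered 1 to 4 as biological replicates in the titles. The groups are cultures of a single cell line, and nothing says how separate the cultures of a group were, so p-values measure the spread between these samples.

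Oxidative phosphorylation takes place in the inner mitochondrial membrane. Complexes I and II pass electrons from NADH and succinate to ubiquinone, complex III passes them on to cytochrome c, and complex IV passes them to oxygen. Complexes I, III and IV pump protons in doing so, and complex V, the ATP synthase, uses the returning protons to make ATP. A few core subunits are encoded in mitochondrial DNA, and all others in the nucleus, where the factors NRF1, GABP (a member of the ETS family), YY1 and SP1 are known to act on many of their promoters. In epithelia, oxidative phosphorylation is known as a main source of ATP beside glycolysis.

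The promoters of subunit genes were searched on both strands for the letters GCGCANGCG (NRF1), CCGGAAG (ETS factors such as GABP), AAGATGGCG (YY1) and GGGCGG (the GC box bound by SP1). RefSeq windows of GRCh38.p14, from 250 bases before to 50 bases after a gene's start, were at hand for 57 of the 66 subunit genes and for 27305 genes in all, and a gene counted if any of its windows held a match. The NRF1 letters stood in 20 of the 57 (35.1%), against 9.02% of all genes. The ETS letters stood in 18 (31.6%), against 12.2%, the YY1 letters in 8 (14.0%), against 2.14%, and the GC box in 37 (64.9%), against 48.3%. The ETS and YY1 letters share an AAG and can overlap. A match describes the letters only. Shown here are the promoters of NDUFA1 and NDUFB2, called in AGA below, and of COX7C, called between Aza and AGA; the promoter of COX6C, the other gene called in AGA, is not shown here. Capitals mark the ETS match, present once in NDUFA1. The 3 windows hold no NRF1 or YY1 letters, and the GC box occurs 2 times in NDUFA1, 2 times in NDUFB2 and 1 time in COX7C.
NDUFA1, chrX:119871582-119871881, plus strand: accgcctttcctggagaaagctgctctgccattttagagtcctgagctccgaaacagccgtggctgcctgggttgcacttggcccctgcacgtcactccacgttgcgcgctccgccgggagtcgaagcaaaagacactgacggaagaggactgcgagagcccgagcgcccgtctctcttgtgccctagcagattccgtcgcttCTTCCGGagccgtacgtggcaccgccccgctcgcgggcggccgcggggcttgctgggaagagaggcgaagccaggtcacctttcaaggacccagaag
NDUFB2, chr7:140696458-140696757, plus strand: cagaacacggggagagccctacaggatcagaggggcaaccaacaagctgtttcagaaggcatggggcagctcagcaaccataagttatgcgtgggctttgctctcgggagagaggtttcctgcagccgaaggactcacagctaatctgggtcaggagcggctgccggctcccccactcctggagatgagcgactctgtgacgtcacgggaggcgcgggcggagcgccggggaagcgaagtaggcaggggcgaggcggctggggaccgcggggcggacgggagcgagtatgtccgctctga
COX7C, chr5:86617691-86617990, plus strand: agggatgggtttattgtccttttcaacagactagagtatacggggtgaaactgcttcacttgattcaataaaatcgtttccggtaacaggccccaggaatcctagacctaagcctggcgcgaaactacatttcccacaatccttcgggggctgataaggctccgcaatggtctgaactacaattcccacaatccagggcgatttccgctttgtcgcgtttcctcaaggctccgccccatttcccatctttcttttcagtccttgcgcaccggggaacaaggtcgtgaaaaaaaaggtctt

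Levels are quantile normalized log2 intensities. Deposited intensities under 1 were raised to 1, so that a level of 0 is the floor. An array's median deposited intensity lay between 23.3 and 35.9, and between 5.26% and 7.94% of an array's values were raised to the floor. The number of arrays limits the precision. Of the epithelial markers, the basal keratins KRT5 and KRT14 each lay at percentile 99.4 of all probe sets, whereas KRT19 was at the floor on all 12 arrays and EPCAM, a surface protein of most epithelia, averaged 2.30 in AGA, 1.31 in Aza and 0.79 in vehicle. None of the 5 leukocyte and none of the 4 muscle markers measured lay above the median level of all probe sets, nor did 3 of 4 endothelial markers (all but KDR), 4 of 6 fibroblast markers (all but COL1A1 and DCN) and 2 of 4 adipocyte markers (all but CIDEC and PLIN1). The median difference of the 7 epithelial markers was 0.23 between AGA and vehicle, 0.00 between Aza and vehicle and -0.42 between Aza and AGA. The medians of the fibroblast, leukocyte, endothelial, adipocyte and muscle markers were -0.27, 0.16, 0.08, 0.24 and 0.12 between AGA and vehicle. Of the 5 markers of these other cell types above the median level, CIDEC, KDR and COL1A1 were lower in AGA than in vehicle in 4 of 4 pairs, by differences of -0.62, -0.54 and -0.37, and did not pass the adjusted threshold. The part of these markers in the differences below was not tested. In such bulk RNA, fewer cells of a type and less RNA per cell cannot be told apart.

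Of the 69 genes, 66 lay above the median level of all probe sets. The exceptions were NDUFB2-AS1 and the COX6A2 and COX7A1 genes, which encode the muscle forms of subunits of complex IV. COX6A2 ran from 0.29 to 3.98 in AGA, from 2.13 to 4.30 in Aza and from 3.37 to 4.71 in vehicle. COX7A1 was at the floor on 3 of 4 AGA arrays. Their differences of -1.15 and -0.56 between AGA and vehicle, and of -0.45 and 0.89 between Aza and vehicle, crossed 0 among pairs.

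AGA was compared with vehicle to ask which transcripts differ in cells that lost apical polarity under a gap junction blocker. Most subunits had a slightly higher transcript level in AGA: 59 of 66 had a difference above 0, with a median of 0.14 (log2), against 0.00 over all probe sets. The median over subunits lay at 0.10, 0.11, 0.13 and 0.18 in the 4 same-number pairs. NDUFA1, NDUFB2 and COX6C were higher in AGA by 0.60, 0.34 and 0.31 and passed the adjusted threshold in the second of the fits described below, in which no subunit passed as lower. On the deposited scale, where the median of all probe sets lay at -0.24, the subunits' median was -0.08. There 17 of 66 subunits lay above 0, a share near that of all probe sets (5450 of 22215). With arrays centred on their medians the subunits' median was 0.21, against 0.04 over all probe sets. Of the 66, 62 then lay above 0, against 12186 of 22215 probe sets. The subunits' median thus stood above that of all probe sets when quantile normalized and on the deposited scale, by 0.17 on the latter, where its sign turned. Centring shifts all probe sets of an array alike. Its gap is therefore that of the deposited scale by construction and no separate check.

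The test was limma's moderated test over all probe sets with the replicate number as a block, with p-values adjusted over all of them by Benjamini-Hochberg, and it called 0 of the 69 genes (0.009% of all probe sets were called). A second fit, which also lets the expected variance follow the signal level (intensity trend, robust), called 3 of 69, all higher, against 0.702% of all probe sets. Most of its calls were bright: of the 11107 probe sets above the median level it called 83 higher and 69 lower. With p unadjusted and under 0.05, the block fit held 7 genes higher and 1 lower (9.52% of all probe sets in both directions). The fit with the intensity trend held 32 higher and 1 lower (11.8%, and 17.7% of probe sets above the median level). Counting pairs only, 33 of 69 genes were higher in 4 of 4 pairs, or 47.8%, against 9.15% of all probe sets and 12.5% of those above the median level. Another 2 were lower in 4 of 4 pairs, or 2.90%, against 9.06%. On the deposited scale 0 of 69 genes were higher in 4 of 4 pairs, against 1.93% of all probe sets. None of the 3 calls of the trend fit held there (adjusted p of 0.229 for NDUFA1, 0.773 for NDUFB2 and 0.674 for COX6C).

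**Figure D1:**
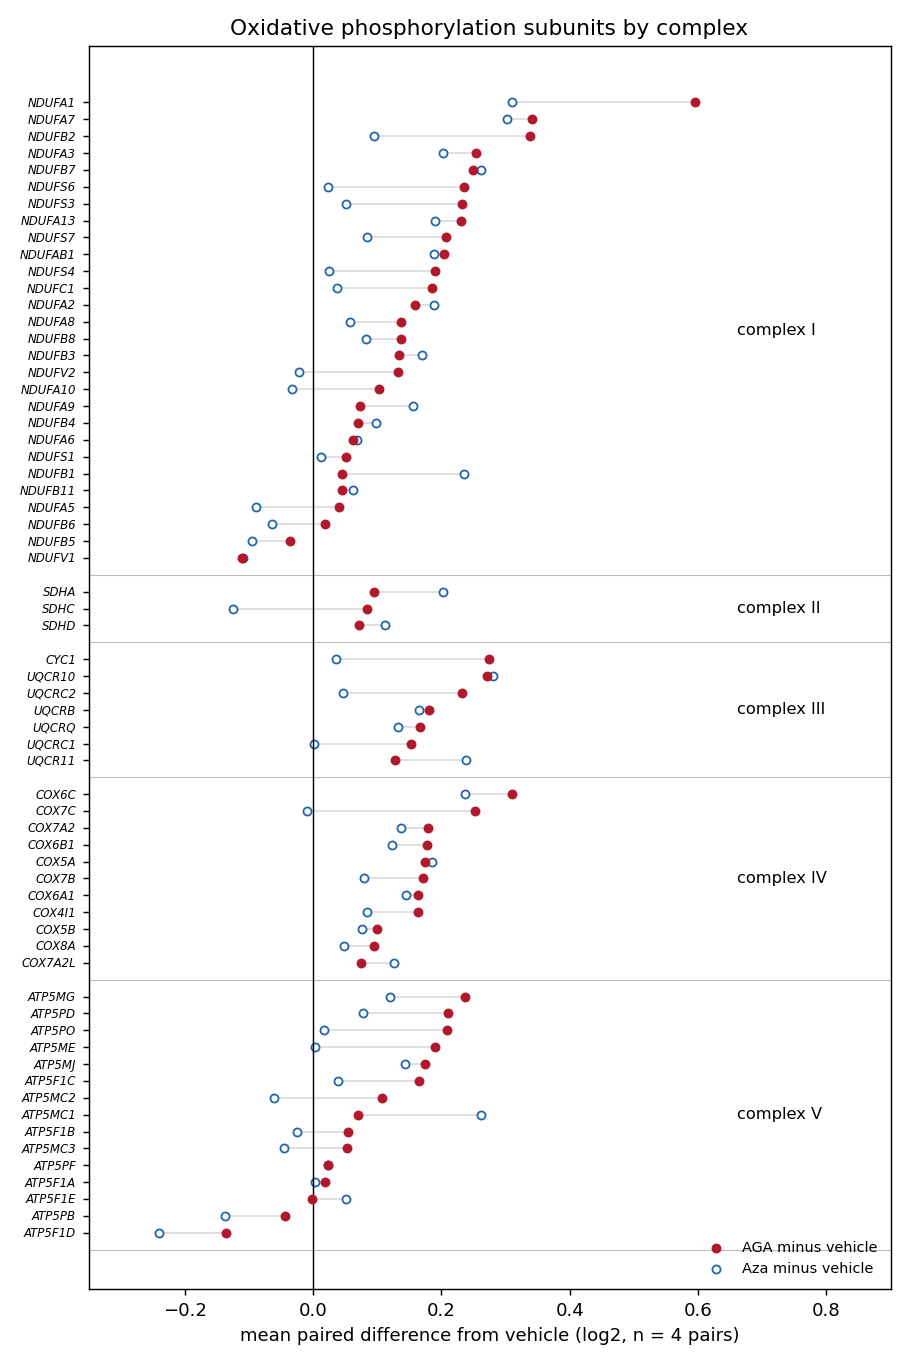
Mean paired difference from vehicle (log2, n = 4 pairs) for each subunit, by complex and ordered by the AGA value; filled points are AGA minus vehicle and open points Aza minus vehicle. COX6A2 and COX7A1 lie outside the axis and are not drawn; most filled points lie right of 0, with NDUFA1 farthest at 0.60, and NDUFV1 and ATP5F1D lie left of it in both treatments.

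In complex I, 26 of 28 subunits had a difference above 0 in AGA, with a median of 0.14, and 13 were higher in 4 of 4 pairs. NDUFA1, a small accessory subunit of the membrane arm that complex I needs for its assembly and that is encoded on the X chromosome, had levels of 10.22, 10.41, 10.51 and 10.58 on AGA arrays 1 to 4, against 9.55, 9.63, 10.21 and 9.95 on vehicle arrays 1 to 4. All AGA values lay above all vehicle values, the closest being 10.22 and 10.21. The difference was 0.60 ± 0.16 (SE, n = 4 pairs), or 1.51-fold, with a limma adjusted p of 0.426 with the block and 0.0186 with the intensity trend. On the deposited scale it was 0.39, where NDUFB2 had 0.09 and COX6C 0.12. NDUFB2, another accessory subunit of the membrane arm, had 9.49, 9.51, 9.82 and 10.01 in AGA, against 9.20, 9.21, 9.31 and 9.75 in vehicle. The groups overlapped, since vehicle array 4 lay above AGA arrays 1 and 2, but each AGA array was above the vehicle array of its number. The difference was 0.34 ± 0.09 (SE, n = 4 pairs; limma adjusted p = 0.433 with the block and 0.0432 with the trend). The other NDUFB2 probe set showed 0.40.

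The accessory subunit NDUFA7 of the matrix arm had 7.84, 7.72, 7.96 and 7.73 in AGA, against 7.36, 7.74, 7.52 and 7.26 in vehicle. It was higher in 3 of 4 pairs, by 0.34 ± 0.14 (SE), and array pair 2 showed almost no difference (limma adjusted p = 0.512, trend 0.226). The 23 accessory subunits and the 5 core subunits had like medians, of 0.14 and 0.13. Among the core subunits, the set that holds the sites of electron transfer, NDUFS3 and NDUFS7 were higher in 4 of 4 pairs, by 0.23 and 0.21. NDUFV1, the core subunit that binds NADH, had 9.45, 9.01, 9.41 and 8.73 in AGA, against 9.39, 9.23, 9.52 and 8.90 in vehicle. It was lower in 3 of 4 pairs, by a mean difference of -0.11 ± 0.11 (SE; limma adjusted p = 0.804).

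**Figure D2:**
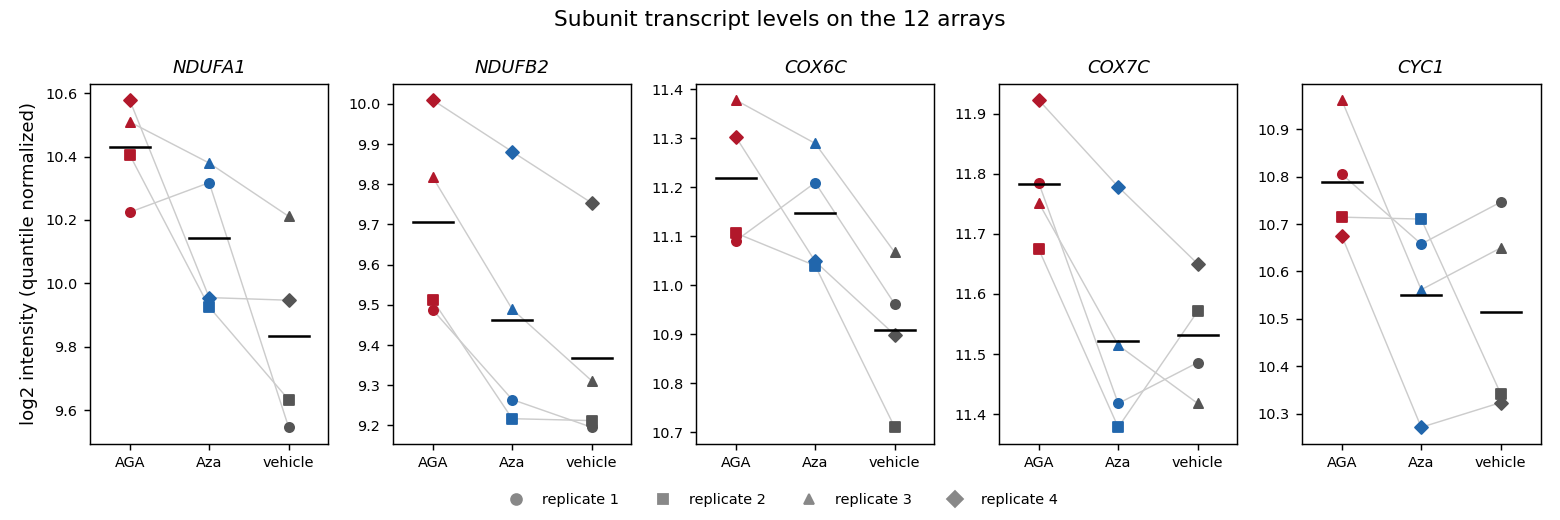
Level (log2 intensity, quantile normalized) of 5 subunits on each array; colours and columns are groups, symbols are replicate numbers, grey lines join arrays of a number, black bars are group means. NDUFA1, COX6C and COX7C have all 4 AGA arrays above all 4 vehicle arrays. The share of all probe sets that do so is not given here. COX7C is also lower in Aza than in AGA in each number.

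Complex II had small differences in AGA. SDHA, the subunit that oxidises succinate, differed by 0.09 ± 0.12, and the membrane anchors SDHC and SDHD by 0.08 ± 0.12 and 0.07 ± 0.09 (SE, n = 4 pairs). None was higher in all pairs, and the limma adjusted p was at least 0.843 with the block and 0.753 with the trend. The interval of the SDHD difference reached from -0.14 to 0.29 (95%), so a difference as large as that of NDUFB2 lay outside it and one like the subunits' median inside. This holds for SDHD only. SDHA and SDHC had larger SE and thus wider intervals, which are not given here.

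Complex III had 7 of 7 subunits with a difference above 0 in AGA, a median of 0.18, and 6 higher in 4 of 4 pairs. CYC1, cytochrome c1, which hands electrons to cytochrome c, had 10.81, 10.71, 10.96 and 10.68 in AGA, against 10.75, 10.34, 10.65 and 10.32 in vehicle. It was higher in each pair, although vehicle array 1 lay above AGA arrays 2 and 4. The difference was 0.27 ± 0.12 (SE; limma adjusted p = 0.531, trend 0.144). The core protein UQCRC2 had 10.21, 10.45, 10.57 and 10.85 in AGA, against 10.11, 10.25, 10.24 and 10.57 in vehicle, a difference of 0.23 ± 0.09 (limma adjusted p = 0.501, trend 0.112); its other probe set showed 0.17. The small subunit UQCR10 differed by 0.27 ± 0.12 (limma adjusted p = 0.542, trend 0.194). Thus each of the 3 was higher in all pairs without passing the adjusted threshold in either fit. On the deposited scale the median of complex III was -0.01.

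Complex IV had 11 of 13 subunits above 0 in AGA, with a median of 0.16, and the exceptions were the dim muscle forms COX6A2 and COX7A1. Of the 13, 10 were higher in 4 of 4 pairs, among them COX7A2L, which is not a core subunit (0.07). COX6C, a small membrane subunit, had 11.09, 11.11, 11.38 and 11.30 in AGA, against 10.96, 10.71, 11.07 and 10.90 in vehicle. The groups did not overlap, and the difference was 0.31 ± 0.10 (SE, n = 4 pairs), or 1.24-fold (limma adjusted p = 0.450 with the block, 0.035 with the trend). COX7C, another small membrane subunit, had 11.79, 11.67, 11.75 and 11.92 in AGA, against 11.49, 11.57, 11.42 and 11.65 in vehicle. Again all AGA values lay above all vehicle values, the closest being 11.67 and 11.65. The difference was 0.25 ± 0.10 (limma adjusted p = 0.501, trend 0.0565). Its other 2 probe sets showed 0.24 and 0.15. COX6A2, the muscle form of a subunit also encoded by COX6A1, had the largest difference below 0 in the complex, -1.15 ± 0.53 (limma adjusted p = 0.548), which ran between -1.55 and -0.40 when single arrays or numbers were left out.

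In complex V, 12 of 15 subunits were above 0 in AGA, with a median of 0.07, 4 higher and 1 lower in 4 of 4 pairs. These are 26.7% and 6.67%, against 9.15% and 9.06% of all probe sets. The 5 subunits of the F1 head and central stalk, which hold the catalytic sites, had a median of 0.02, and the 10 others, of the membrane part and peripheral stalk, 0.14. Differences between both sets, and between complexes, were not tested. ATP5MG, subunit g of the membrane part, had 10.96, 11.04, 11.21 and 11.02 in AGA, against 10.77, 10.81, 10.94 and 10.77 in vehicle. All AGA values exceeded all vehicle values, by 0.24 ± 0.09 in the mean (SE; limma adjusted p = 0.491, trend 0.0696). Another of its probe sets, which ends in x and may bind related transcripts, passed with the trend at 0.28 (limma adjusted p = 0.0428), while its dimmest one showed -0.04. ATP5PD, subunit d of the peripheral stalk, and ATP5PO, which joins that stalk to the head, were each higher in 4 of 4 pairs, by 0.21 ± 0.09 and 0.21 ± 0.09 (limma adjusted p = 0.538 and 0.540).

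ATP5F1D, the delta subunit of the central stalk, was the only subunit lower in 4 of 4 AGA pairs. It had 8.04, 8.08, 8.21 and 8.09 in AGA, against 8.22, 8.14, 8.34 and 8.25 in vehicle, with a difference of -0.14 ± 0.11 (SE; limma adjusted p = 0.747, trend 0.657), and its other probe set showed -0.53. The groups overlapped only through AGA array 3. ATP5MC1, ATP5MC2 and ATP5MC3 encode the same mature rotor subunit c and differed by 0.07, 0.11 and 0.05. A second ATP5MC3 probe set showed 0.35 and passed with the trend (limma adjusted p = 0.0432), so the probe sets of that gene disagree in size. Over all genes with several probe sets, 25 of the 33 that were not the brightest had the sign of the brightest in AGA, and 23 of the 27 above the median level. Among the genes counted apart, ATP5IF1 differed by 0.00 and ATP5MC2P1 by -0.16. NDUFB2-AS1, named here after its values were seen, had 4.50, 3.49, 4.70 and 3.86 in AGA, against 5.38, 5.74, 5.03 and 4.76 in vehicle, without overlap and close to the median level of the arrays (difference -1.09).

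The 3 calls of the trend fit were often lost with fewer arrays. Each refit has fewer samples, so a lost call cannot be laid to a single array. Refitting with each of the 12 arrays or each of the 4 replicate numbers left out gave 16 settings. NDUFA1 was called in 8 of them, with adjusted p from 0.00758 to 0.124, COX6C in 5 (0.00875 to 0.239) and NDUFB2 in 0 (0.0525 to 0.345). No gene of the set was called without AGA 2, AGA 4, vehicle 1, vehicle 4, or replicate number 2, 3 or 4, and without vehicle 2 the only call was COX7C. The sizes moved less: NDUFA1 stayed between 0.51 and 0.69, NDUFB2 between 0.28 and 0.37 and COX6C between 0.26 and 0.37 in the block fit.

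Aza was compared with vehicle to ask which transcripts differ in cells that lost apical polarity under a DNA methyltransferase inhibitor. Differences were small, and no gene passed an adjusted threshold. Of 66 subunits, 52 had a difference above 0, with a median of 0.08, and the median lay at 0.10, 0.08, 0.10 and 0.08 in the 4 pairs. The median was 0.04 on the deposited scale and 0.13 with arrays centred on their medians, against -0.06 and 0.03 over all probe sets. The vehicle arrays are the ones that also stand against AGA, so values of both treatments share them and are given side by side only.

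In Aza the block fit called 0 of 69 genes (0% of all probe sets) and the fit with the trend 0 as well (0.0045%). With p unadjusted and under 0.05, the block fit held 2 genes, both higher (5.39% of all probe sets). The trend fit held 15 higher and 2 lower (6.47%, and 7.95% of probe sets above the median level). Of the 69 genes, 23 were higher in 4 of 4 pairs, or 33.3%, against 7.61% of all probe sets and 9.63% of those above the median level. Another 2 were lower in all pairs (7.12% of all probe sets). On the deposited scale 1 of 69 was higher in 4 of 4 pairs, against 3.41% of all probe sets.

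Complex I had a median of 0.08 in Aza, with 22 of 28 subunits above 0 and 9 higher in 4 of 4 pairs. NDUFB1, an accessory subunit of the membrane arm, had 10.75, 10.48, 10.73 and 10.94 in Aza, against 10.40, 10.39, 10.53 and 10.63 in vehicle. It was higher in each pair, by 0.24 ± 0.09 (SE; limma adjusted p = 0.912, trend 0.514), although 10.48 in Aza lay among the vehicle values. NDUFA1 had 10.32, 9.93, 10.38 and 9.96 in Aza, a difference of 0.31 ± 0.16 against vehicle, where it was 0.60 in AGA; pair 4 contributed 0.01. NDUFA7 differed by 0.30 ± 0.14, where AGA had 0.34, and NDUFV1 by -0.11 ± 0.11, the value it had in AGA. In complex II the median was 0.11: SDHA differed by 0.20 ± 0.12, SDHD by 0.11 ± 0.09 and SDHC by -0.12 ± 0.12 (limma adjusted p of at least 0.926 for all 3). The other SDHC probe sets had the opposite sign, at 0.07, 0.14 and 0.16. The other SDHD probe set, dim at a mean level of 3.27, showed -0.90.

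Complex III had a median of 0.13 in Aza with 7 of 7 above 0. UQCR10 had 9.84, 9.78, 10.11 and 10.09 in Aza, against 9.62, 9.58, 10.00 and 9.51 in vehicle, a difference of 0.28 ± 0.12, and UQCR11, another small subunit, differed by 0.24 ± 0.11 (SE; limma adjusted p of 0.912 and 0.913). Both were higher in 4 of 4 pairs. CYC1 differed by 0.03 ± 0.12 in Aza and was higher in 1 of 4 pairs. In complex IV the median was 0.12, with 6 of 13 higher in all pairs. COX6C had 11.21, 11.04, 11.29 and 11.05 in Aza, a difference of 0.24 ± 0.10 against vehicle (limma adjusted p = 0.912, trend 0.514), and COX5A, a subunit on the matrix side, 0.19 ± 0.10. COX7C had 11.42, 11.38, 11.51 and 11.78 in Aza, which spans the vehicle values, and differed by -0.01 ± 0.10, with an interval from -0.24 to 0.22.

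Complex V had a median of 0.02 in Aza, with 10 of 15 above 0. The 2 genes lower in all pairs were ATP5F1D, at -0.24 ± 0.11, and ATP5PB, subunit b of the peripheral stalk, at -0.14. ATP5F1D had 8.19, 7.88, 8.19 and 7.74 in Aza, against 8.22, 8.14, 8.34 and 8.25 in vehicle (limma adjusted p = 0.912, trend 0.733). In both treatments it was thus below vehicle in each pair, without passing. ATP5MC1 was higher in 4 of 4 pairs, by 0.26 ± 0.16 (limma adjusted p = 0.928), with pair 2 at 0.02, whereas the other genes of subunit c had -0.06 (ATP5MC2) and -0.04 (ATP5MC3). Of the 33 probe sets that were not the brightest of their gene, 19 had the sign of the brightest in Aza.

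**Figure D3:**
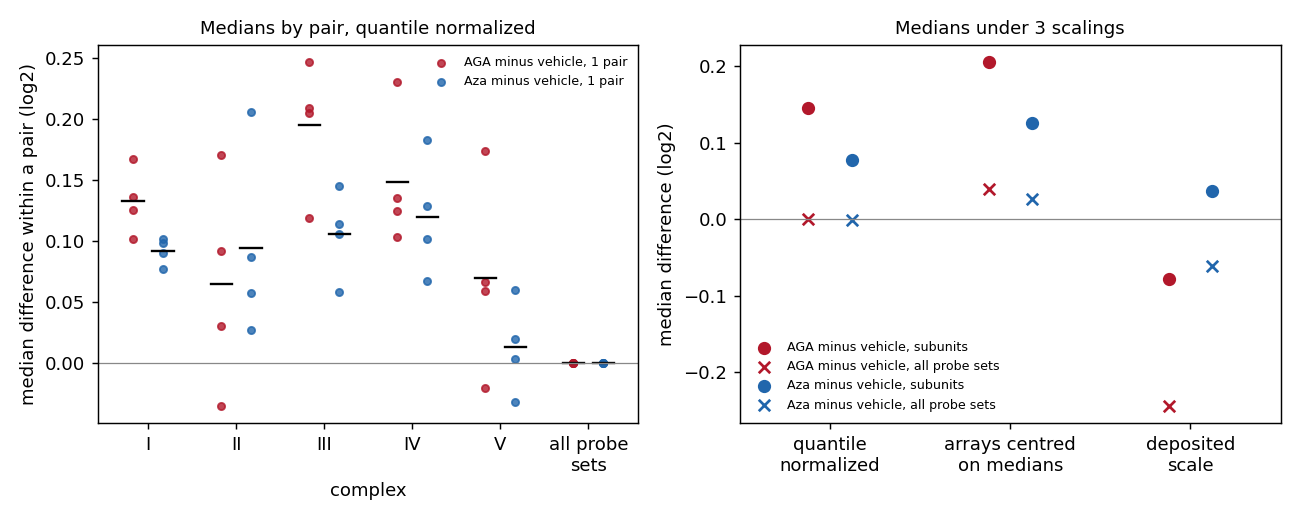
Left, the median difference from vehicle over the subunits of each complex in each same-number pair (points, n = 4 pairs; black bars are their means), beside all probe sets. Right, the median over all 66 subunits (circles) and over all probe sets (crosses) under 3 scalings. The subunits stand above all probe sets under each, and below 0 for AGA on the deposited scale. The gap with arrays centred equals that on the deposited scale by construction.

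The contrast of Aza with AGA tests whether both treatments differ from each other. Subunits were slightly lower in Aza when quantile normalized: 47 of 66 had a difference below 0 (11173 of 22215 probe sets), with a median of -0.05. On the deposited scale their median was 0.12, against 0.18 over all probe sets. There 57 of 66 lay above 0, against 15819 of 22215 probe sets. By that count, subunits were above 0 more often than probe sets at large, although their median was lower. COX7C was the single gene called, and only with the intensity trend. It had 11.42, 11.38, 11.51 and 11.78 in Aza, against 11.79, 11.67, 11.75 and 11.92 in AGA, and was lower in each pair, the groups overlapping through Aza array 4. The difference was -0.26 ± 0.10 (SE, n = 4 pairs; limma adjusted p = 0.516 with the block and 0.0464 with the trend), and -0.09 on the deposited scale. The other 2 COX7C probe sets showed 0.01 and -0.21 and were not called (limma adjusted p of 0.978 and 0.168 with the trend). The call thus rests on the brightest probe set alone. Of the 16 settings that leave out an array or a number, the call held in 2, without Aza 4 and without vehicle 2 (adjusted p from 0.0319 to 0.232 over the 16). In the same fit the adipocyte marker CIDEC, the endothelial marker KDR and the fibroblast marker DCN were called higher in Aza than in AGA. Their differences were 1.49, 0.75 and 1.47 (limma adjusted p of 0.00375, 0.0131 and 0.0162). The lists they come from did not move as a whole. Above 0 were 2 of 4 adipocyte, 1 of 4 endothelial and 4 of 6 fibroblast markers, with medians of 0.01, -0.81 and 0.28. The part of these markers in the COX7C difference was not tested.

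Between Aza and AGA the block fit called 0 of 69 genes (0.009% of all probe sets) and the trend fit 1 (0.851%). Of the 11107 probe sets above the median level, the trend fit called 97 higher and 79 lower. With p unadjusted and under 0.05, the block fit held 2 genes, both lower (9.13%), and the trend fit 1 higher and 10 lower (11.2%). In Aza 18 of 69 genes were lower than in AGA in 4 of 4 pairs, or 26.1%, against 8.76% of all probe sets and 11.7% of those above the median level, and 2 were higher (8.66%). On the deposited scale 0 of 69 were lower in 4 of 4 pairs, against 2.31% of all probe sets. Complex V held 7 of the 18 and had a median of -0.10: ATP5ME, subunit e, and ATP5PO each differed by -0.19 ± 0.09. In complex III, CYC1 differed by -0.24 ± 0.12 and UQCRC2 by -0.19 ± 0.09, both lower in each pair, and UQCR11 by 0.11 ± 0.11. In complex I, NDUFB2 was lower in each pair by -0.24 ± 0.09 and NDUFA1 in 3 of 4 by -0.29 ± 0.16, while NDUFB1 was higher in each by 0.19 ± 0.09. COX6C differed by -0.07 ± 0.10, with an interval from -0.30 to 0.16. SDHC had -0.21 ± 0.12, SDHA 0.11 ± 0.12 and ATP5MC1 0.19 ± 0.16. The other SDHC probe sets showed 0.03, -0.06 and 0.03. The limma adjusted p with the block was at least 0.516 for every gene named here.

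Other mitochondrial genes of nuclear origin were set beside the subunits in AGA. The 51 mitochondrial ribosomal protein genes, which translate the subunits encoded in mitochondrial DNA, had a median of 0.14 with 45 above 0. In 4 of 4 pairs 15 were higher (29.4%, against 9.15% of all probe sets) and 0 lower (9.06% of all probe sets). MRPL15 differed by 0.39 ± 0.10 (SE; limma adjusted p = 0.437, trend 0.0465) and MRPL58, a release factor of that ribosome, by 0.43 ± 0.11. The 17 genes listed as carriers, most of which move ATP, phosphate or electrons, had a median of 0.16 with 15 above 0. This list also holds UCP2, UCP3, AIFM1, CHCHD2 and COX7A2L, and COX7A2L is counted in complex IV as well. SLC25A4, an exchanger of ADP and ATP, differed by 0.51 ± 0.16 and ETFA, which feeds electrons from fatty acids, by 0.33 ± 0.12. The 15 genes of the tricarboxylic acid cycle had a median of 0.05 with 11 above 0; SUCLG1, a subunit of succinyl-CoA ligase, differed by 0.34 ± 0.09 (limma adjusted p = 0.437, trend 0.0419) and IDH2 by 0.40 ± 0.13. The medians of these lists on the deposited scale were -0.12, -0.05 and -0.16.

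Assembly factors and regulators had medians closer to 0 than the subunits. The 29 assembly factors had a median of 0.05, with 20 above 0; ATPAF2, an assembly factor of the ATP synthase, differed by 0.51 ± 0.13 and NDUFAF7, which methylates a complex I subunit, by -0.61 ± 0.19 (SE). The 18 regulators of mitochondrial biogenesis had a median of -0.04, with 7 above 0, and 2 were higher and 2 lower in 4 of 4 pairs. That is 11.1% in each direction, near the 9.15% and 9.06% of all probe sets. NRF1, the transcription factor of the motif above, had a difference of -0.52 ± 0.18 and TFB2M, a factor of mitochondrial transcription, of -0.31 ± 0.11, each lower in 4 of 4 pairs (limma adjusted p = 0.470 for both). Those higher, named after their values were seen, were GABPA, a subunit of the factor GABP, at 0.54 ± 0.23 (limma adjusted p = 0.530), and SSBP1, which binds single-stranded mitochondrial DNA, at 0.13 ± 0.09. In Aza the medians were 0.10 for mitochondrial ribosomal proteins, 0.09 for carriers, 0.05 for the tricarboxylic acid cycle, -0.01 for assembly factors and 0.06 for regulators. Differences between these lists and the subunits were not tested.

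Same-number pairs varied less than the replicates of a group. The SD of a subunit within a group had a median of 0.18, against 0.12 for the 4 paired differences of AGA and 0.13 for those of Aza, and 57 of 66 subunits had a smaller SD among AGA pairs than within groups. Replicate 4 stood apart. Against the mean of the others it was over 0.2 higher for 20 subunits and over 0.2 lower for another 20. Of the 66, 14 had their highest value in replicate 4 in all 3 groups, among them COX7A2 (0.71 above the others), NDUFB2 and NDUFS6 (0.49 each), and 13 had their lowest there, among them UQCRC1 (-0.59) and NDUFV2 (-0.45). Over all probe sets 11.4% had their highest and 11.0% their lowest value in replicate 4 in all groups. Without replicate 4 the 3 calls of the trend fit in AGA were lost, as given above, and the median over the 69 genes stayed between 0.13 and 0.15 over the 16 settings.

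**Figure D4:**
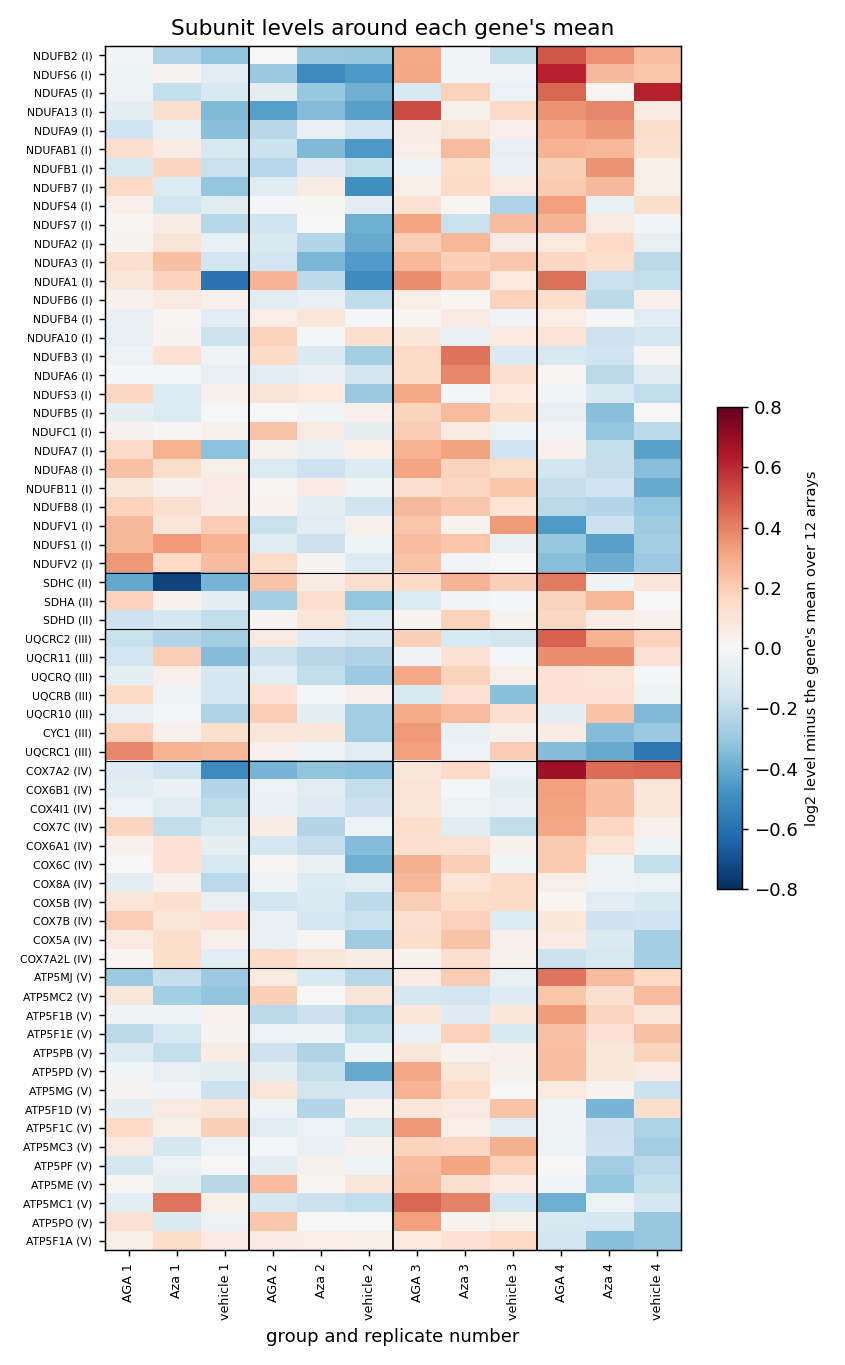
Level of each subunit minus its mean over the 12 arrays (log2 colour scale from -0.8 to 0.8), arrays grouped by replicate number with AGA, Aza and vehicle side by side, genes by complex and by their shift in replicate 4. COX6A2 and COX7A1 are not drawn; the columns of replicate 4 share gains (COX7A2, NDUFB2) and losses (UQCRC1, NDUFV2) in all 3 groups.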

How the data were processed

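The deposited values are intensities per probe set on a linear scale, made by the authors with GCOS, the Affymetrix operating software, per the submitters' processing notes; its version, algorithm and any scaling are not given in the sources used here. Intensities under 1 were raised to 1 before taking log2. The 62 control probe sets were left out and the 12 arrays quantile normalized. All 22215 probe sets were fitted on group and replicate number by lmFit and eBayes of limma 3.58.1 (R 4.3.3, two-sided), with Benjamini-Hochberg adjustment over all of them at 0.05. The alternatives were no replicate block, an intensity trend (robust) with the block, the deposited scale, arrays centred on their medians, an offset of 16, probe sets above the median level, the mean of a gene's probe sets, and leaving out each array or replicate number. The script was tested on simulated data.

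Replicate numbers come from the titles. Deviations from the group means of arrays sharing a number correlated by 0.368 to 0.781 over the 11107 probe sets above the median level (12 of 12 pairs over 0.1; at most 0.181 for different numbers), and by 0.0589 to 0.261 over all probe sets (6 of 12 over 0.1). Each of the 12 arrays correlated best with its own number in both. No label says what arrays of a number share, and no array pair held identical values.

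Members and gene lists were chosen with earlier results of these data known. Genes named in each comparison are NDUFA1, COX6C, COX7C and CYC1, per complex the 3 (AGA) or 2 genes of lowest p and the most extreme gene of the opposite sign, and every gene past the adjusted threshold; in the other lists, the 2 genes of lowest p in AGA. Genes named beyond this rule were chosen after their values were seen. Probe sets with several symbols (1043) or none (2108) named no gene. Promoter sequences are RefSeq's. No alternative with the trend on another scale or with arrays left out was planned; these were added after seeing the data.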

Additional observations from a re-analysis of the deposited data

Results flagged for a closer look

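COX7A1, the muscle form of a complex IV subunit, had a level of 3.44 on AGA array 3, where the other 3 AGA arrays were at the floor of 0. SDHC, a membrane anchor of complex II, had 8.19 on vehicle array 1, below the 8.66 to 8.75 of the other vehicle arrays; AGA array 1 (8.15) and Aza array 1 (7.82) were also the lowest of their groups. Each is a sample far from the others of its group. These were 2 of 84 sets of 4 values examined, and chance alone picks out about 1 in 20 such sets. That rate does not hold for COX7A1 in AGA, where the floor made the other 3 values equal, so that any value above it is flagged.

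COX7C, a small subunit of complex IV, was called between the treatments only with the intensity trend. Its difference from vehicle was -0.01 in Aza and 0.25 in AGA. The test of the difference itself gave -0.26, lower in 4 of 4 pairs (limma with the replicate block and intensity trend, adjusted p = 0.0464, and 0.516 without the trend). The trend fit gave an adjusted p of 0.114 with arrays centred and 0.786 on the deposited scale. With arrays or numbers left out, the call held in 2 of 16 settings. The other probe sets of COX7C showed 0.01 and -0.21.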

How the results depend on the processing

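With the replicate block and the intensity trend, 156 (AGA), 1 (Aza) and 189 (Aza against AGA) probe sets and 3, 0 and 1 of the 69 genes were called, against 2, 0 and 2 probe sets and 0 genes with the block alone. No replicate block gave 2 probe sets in Aza and 0 of the 69 genes in each comparison. In AGA 0 probe sets were called on the deposited scale, with arrays centred, above the median level and with the mean of a gene's probe sets, and 1 with the offset of 16; between Aza and AGA the counts were 0 with arrays centred, 7 with the offset, 83 above the median level and 1 with probe set means. The trend fit called 1 gene in AGA on the deposited scale (NDUFB2-AS1, lower) and 4 with arrays centred (ATP5PD, COX6C, COX7C and NDUFA1). The median over the 69 genes, 0.14, 0.07 and -0.05, was -0.086, 0.022 and 0.12 on the deposited scale and 0.20 and 0.11 in AGA and Aza with arrays centred; genes higher in all pairs (for Aza against AGA, lower) numbered 0, 1 and 0 on the deposited scale. COX7C in Aza was 0.047 relative to the median of all probe sets on the deposited scale, 0.074 with arrays centred and 0.061 with probe set means, which also gave SDHD -0.33 in AGA and -0.39 in Aza, and SDHC 0.064 in Aza. Leaving out an array or number gave 0 to 1 (AGA), 0 to 1 (Aza) and 0 to 2 (Aza against AGA) probe sets, and in Aza a median of 0.061 to 0.084 over the 69 genes, -0.052 to 0.051 for COX7C, -0.078 to 0.091 for CYC1 and -0.79 to 0.12 for COX6A2; with the trend it gave 0 to 2 genes in AGA and 0 to 1 between Aza and AGA. Causes were not tested. Over the named genes, leaving aside the trend fits on another scale or with arrays left out, and with the deposited scale taken relative to the median of all probe sets, 1059 values kept their direction and side of the threshold, 15 turned in direction and 4 passed only there. Without that shift, 5 turned on the deposited scale: SDHA (-0.13), SDHC (-0.17) and SDHD (-0.18) in AGA, CYC1 (-0.0022) in Aza, and COX6C (0.088) between Aza and AGA.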
